A study of Sus scrofa with 5 samples.

Results

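Cathepsins are the proteases of the lysosome, and cystatin C is the secreted protein that blocks many of them. Their mRNA was examined in ovarian follicles of the pig through 10 genes picked by symbol, which are CTSA, CTSB, CTSC, CTSD, CTSH, CTSK, CTSL, CTSS, CTSZ and CST3. Each symbol occurred once among the 30822 genes listed, and all 10 were found. The animals were female pigs of the Indian Ghoongroo breed, and RNA was sequenced from their ovarian follicles in 3 libraries of large follicles and 2 libraries of small follicles. The question the design poses is which genes differ with follicle size. Replicates are labelled as biological. The sources used here do not give the number of animals, the age of the pigs, the follicle diameters or the number of follicles per library. A p-value therefore speaks only of the spread among these libraries, which may in part be technical.

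Most cathepsins are made as inactive precursors, carried to the lysosome by the mannose-6-phosphate route, and freed of their propeptide in the acidic lumen. The papain-type enzymes, here CTSB, CTSC, CTSH, CTSK, CTSL, CTSS and CTSZ, cut with a cysteine; CTSD cuts with a pair of aspartates and CTSA with a serine. Cystatin C is a small protein that leaves the cell and occupies the active site of papain-type enzymes, and it does not inhibit CTSD or CTSA. In the ovary, cathepsins are known from protein turnover in growing follicles and corpora lutea, from matrix breakdown around ovulation and from macrophages in the follicle wall.

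Levels are given as FPKM, fragments scaled by gene length and by library total, as the authors computed them. Library totals worked back from these values lay between 9523739 and 11507527 fragments. Every member was above an FPKM of 1 in every library, so all 10 entered the test over 13087 genes. The deepest member, CTSB, had 12114 fragments in large follicle replicate 3, and the shallowest, CTSS, had 373 in small follicle replicate 1. Granulosa and theca markers fixed for the tissue check (10 of 10 and 9 of 9) were present among the genes tested. In bulk tissue, fewer cells of a type and less RNA per cell cannot be told apart.

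Large follicles had higher values of most of these genes, but no member passed the threshold. With limma on log2(FPKM + 1) and Benjamini-Hochberg adjustment over all genes tested, 0 of 10 members were called at an adjusted p under 0.05, where 0.978% of all genes were called. At an unadjusted p under 0.05 there were 3 higher members, CTSH, CTSZ and CST3, and 0 lower ones, where 10.4% of all genes passed either way and 4.76% passed as higher. Limma voom on the recovered fragments also called 0 members, with 39 genes called higher and 31 lower over all genes tested. It had 3 members at an unadjusted p under 0.05, where 10% of all genes passed either way. Values were higher in large follicles for 9 members and lower for 1, with a median log2 difference of 0.61 (large minus small). Over all genes tested 39.9% had higher values, and the median was -0.08. In 6 members, CTSB, CTSD, CTSH, CTSS, CTSZ and CST3, every large follicle library was above every small follicle library, which held for 10.9% of all genes tested (26.1% did not overlap in either direction). That count was 3 when libraries were scaled to a common sum of FPKM, where CTSH, CTSZ and CST3 remained and 6.7% of all genes did so; there 8 members had higher values and 2, CTSA and CTSK, lower ones.

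**Figure D1:**
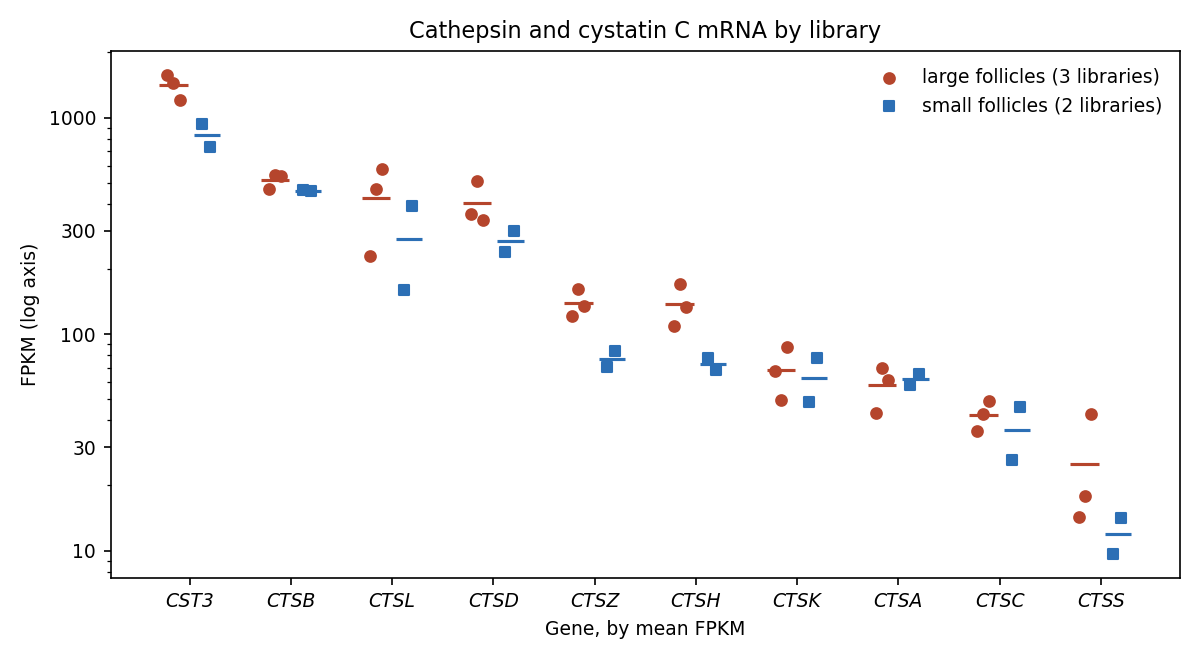
FPKM (log axis) of the 10 genes in each library, with genes ordered by mean; circles are the 3 large follicle libraries, squares the 2 small follicle libraries, and bars the group means. CST3 lay above every cathepsin in all 5 libraries. The circles of CTSB, CTSD, CTSH, CTSS, CTSZ and CST3 all lay above the squares of the same gene, though only just for CTSB and CTSS.

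Cystatin C had by far the highest level per length. CST3 (chromosome 17, 30471056 to 30474486, Sscrofa11.1) had 1578, 1452 and 1209 FPKM in large follicle replicates 1, 2 and 3, against 935 and 731 FPKM in small follicle replicates 1 and 2. All 3 large follicle libraries were above both small follicle libraries. The means were 1413 ± 188 FPKM (SD, n = 3) in large and 833 ± 144 FPKM (SD, n = 2) in small follicles, a 1.70-fold difference. The log2 difference was 0.76 ± 0.28 (SE), with a 95% interval from 0.14 to 1.38 and a limma adjusted p of 0.342. CST3 stood between rank 92 and rank 118 of all listed genes by FPKM in each library. Its listed length is only 471 bases, so its level per length rests on a short gene model: in fragments it had 8555, 6831 and 5957 in large and 4193 and 3455 in small follicles, fewer than CTSB in every library.

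Cathepsin Z and cathepsin H had the smallest p-values among the members. CTSZ (chromosome 17, 59141497 to 59149377), an enzyme that trims residues from the carboxyl end of proteins, had 122, 162 and 135 FPKM in the large follicle libraries, against 70.1 and 83.2 FPKM in the small follicle libraries. Every large follicle library was above both small follicle libraries. The fold of means was 1.82, and the log2 difference was 0.85 ± 0.21 (SE; 95% interval 0.38 to 1.33; limma adjusted p = 0.119). CTSH (chromosome 7, 48084882 to 48106072), which works mainly from the amino end of its substrates, had 109, 170 and 133 FPKM in large follicles, against 77.2 and 68.2 FPKM in small follicles. Large follicle replicate 2 was the highest library for both genes. The fold of CTSH means was 1.89, and the log2 difference was 0.89 ± 0.23 (SE; 95% interval 0.37 to 1.41; limma adjusted p = 0.144). By size of log2 difference CTSH and CTSZ stood at the 97.6 and 97.4 percentiles of all genes tested.

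**Figure D2:**
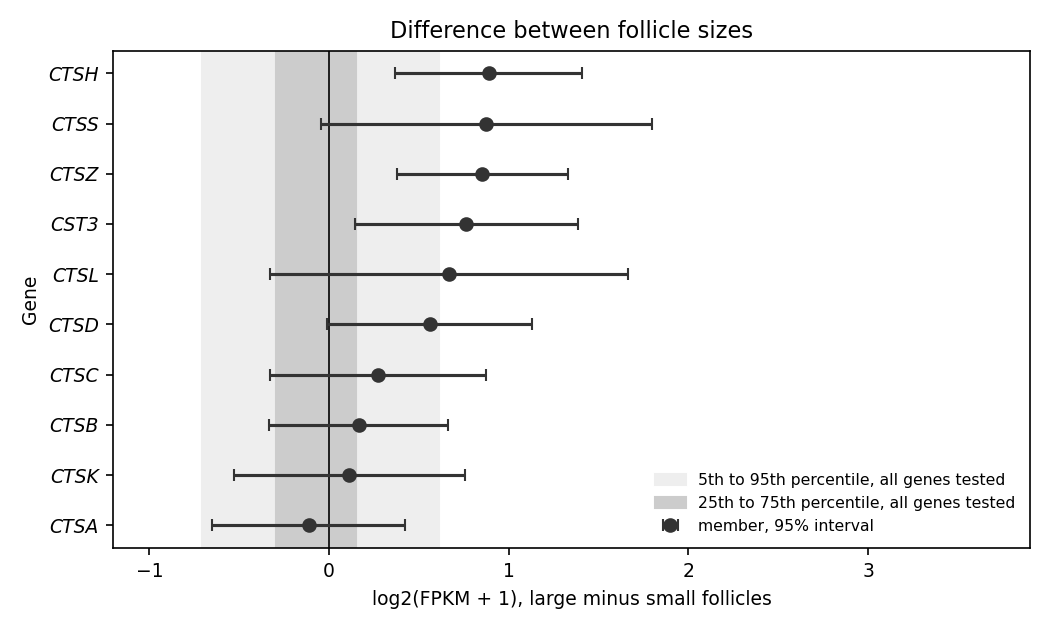
Difference in log2(FPKM + 1), large minus small follicles, for each member (points) with the 95% interval from limma (bars), over shaded bands that hold the middle of all 13087 genes tested. The intervals of CTSH, CTSZ and CST3 lay above 0, those of the other 7 members crossed 0, and CTSA was the only member with a point below 0.

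Of the members that do not use a cysteine, cathepsin D had groups that did not overlap and cathepsin A had groups that did. CTSD (chromosome 2, 1188548 to 1197642), an aspartic protease that acts early in the breakdown of proteins in lysosomes, had 357, 512 and 338 FPKM in large follicles, against 240.1 and 298 FPKM in small follicles. The groups were apart, and large follicle replicate 2 was 1.43 times the next library of its group. Its log2 difference was 0.56 ± 0.25 (SE; 95% interval -0.01 to 1.13; limma adjusted p = 0.492). CTSA (chromosome 17, 48082480 to 48089971), a carboxypeptidase that also shields the lysosomal enzymes GLB1 and NEU1 from degradation, had 43.2, 69.6 and 61.5 FPKM in large follicles, against 58.4 and 65.1 FPKM in small follicles. The groups overlapped, and the lowest and highest libraries were both large follicles. Its log2 difference was -0.11 ± 0.24 (SE; 95% interval -0.65 to 0.42; limma adjusted p = 0.932); with large follicle replicate 1 left out it was 0.083. The CTSA locus overlaps PLTP by 183 bases and NEURL2 by 697 bases on the opposite strand. PLTP averaged 151 FPKM, and the sources used here do not say whether counting used the strand, so the CTSA level is uncertain.

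Cathepsin B, the cathepsin with the highest mean, varied least. CTSB (chromosome 14, 15014139 to 15035081), which acts both inside protein chains and at their carboxyl end, had 467, 544 and 540.3 FPKM in large follicles, against 461 and 459 FPKM in small follicles. The groups did not overlap, but large follicle replicate 1 was almost level with the small follicle libraries, and the separation was lost under each of the 3 other scalings tried. The coefficient of variation over all 5 libraries was 8.88%, the smallest of the 10 members, against 67.1% for CTSS, the largest. The log2 difference of CTSB was 0.17 ± 0.22 (SE; 95% interval -0.33 to 0.66; limma adjusted p = 0.883). Its share of the summed FPKM of the 9 cathepsins was 32.3%, 26.7% and 27.5% in large follicles, against 40.0% and 30.6% in small follicles.

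Cathepsin L spread widely within each group. CTSL (chromosome 10, 27668523 to 27674705), an endopeptidase that in mice is induced in granulosa cells before ovulation through the progesterone receptor, had 230.4, 470.5 and 581 FPKM in large follicles, against 161 and 389.9 FPKM in small follicles. The highest library was 2.52 times the lowest among large follicles and 2.43 times the lowest among small follicles, and the groups overlapped. The log2 difference was 0.67 ± 0.44 (SE; 95% interval -0.33 to 1.66; limma adjusted p = 0.706). Leaving out small follicle replicate 1 gave 0.03, and leaving out small follicle replicate 2 gave 1.303. Its close relative CTSV had 183, 94.8 and 181 FPKM in large follicles, against 84.9 and 151 FPKM in small follicles. The sources used here do not say how fragments shared by CTSL and CTSV were assigned, so the split between them is uncertain.

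Cathepsin S had the lowest level and the widest spread. CTSS (chromosome 4, 98415273 to 98442952), which keeps its activity at neutral pH and removes the invariant chain from MHC class II in antigen-presenting cells, had 14.3, 17.9 and 42.9 FPKM in large follicles, against 9.66 and 14.1 FPKM in small follicles. Large follicle replicate 3 was 2.40 times the next library, and large follicle replicate 1 was barely above small follicle replicate 2. The log2 difference was 0.88 ± 0.41 (SE; 95% interval -0.05 to 1.80; limma adjusted p = 0.515). Leaving out large follicle replicate 3 gave 0.42. CTSK (chromosome 4, 98389459 to 98404969), a collagen-degrading enzyme best known from osteoclasts, is its neighbour on the same strand. CTSK had 67.6, 49.7 and 87.1 FPKM in large follicles, against 48.4 and 77.6 FPKM in small follicles. The groups of CTSK overlapped, with a log2 difference of 0.11 ± 0.29 (SE; 95% interval -0.53 to 0.76; limma adjusted p = 0.941). The sign turned negative when small follicle replicate 1 (-0.22) or large follicle replicate 3 (-0.080) was left out, with libraries scaled to a common sum (-0.011) and with a replicate block (-0.080). The annotated CTSK span overlaps the end of ARNT on the same strand by 554 bases; ARNT averaged 8.33 FPKM.

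Cathepsin C overlapped between the groups. CTSC (chromosome 9, 21726628 to 21761796), which removes dipeptides from the amino end and so activates the serine proteases of leukocyte granules, had 35.8, 42.7 and 49.1 FPKM in large follicles, against 26.2 and 46.0 FPKM in small follicles. Small follicle replicate 1 stood apart at the low end, while small follicle replicate 2 lay among the large follicle libraries. Its log2 difference was 0.27 ± 0.27 (SE; 95% interval -0.33 to 0.88; limma adjusted p = 0.830), and -0.12 without small follicle replicate 1.

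The order of the members by FPKM was much the same in every library. CST3 came first and CTSS last in all 5, and CTSC was next to last in all 5. CTSB was first among the cathepsins in 4 libraries, while CTSL was in large follicle replicate 3. Over all 5 libraries the lowest CST3 value was above the highest value of CTSB, and the lowest CTSD value was above the highest value of CTSZ. The other neighbours in the order of means (CTSB and CTSL, CTSL and CTSD, CTSZ and CTSH, CTSH and CTSK, CTSK and CTSA, CTSA and CTSC, CTSC and CTSS) overlapped in range over the 5 libraries. Within each library, though, CTSA was above CTSC and CTSC above CTSS, in all 5.

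**Figure D3:**
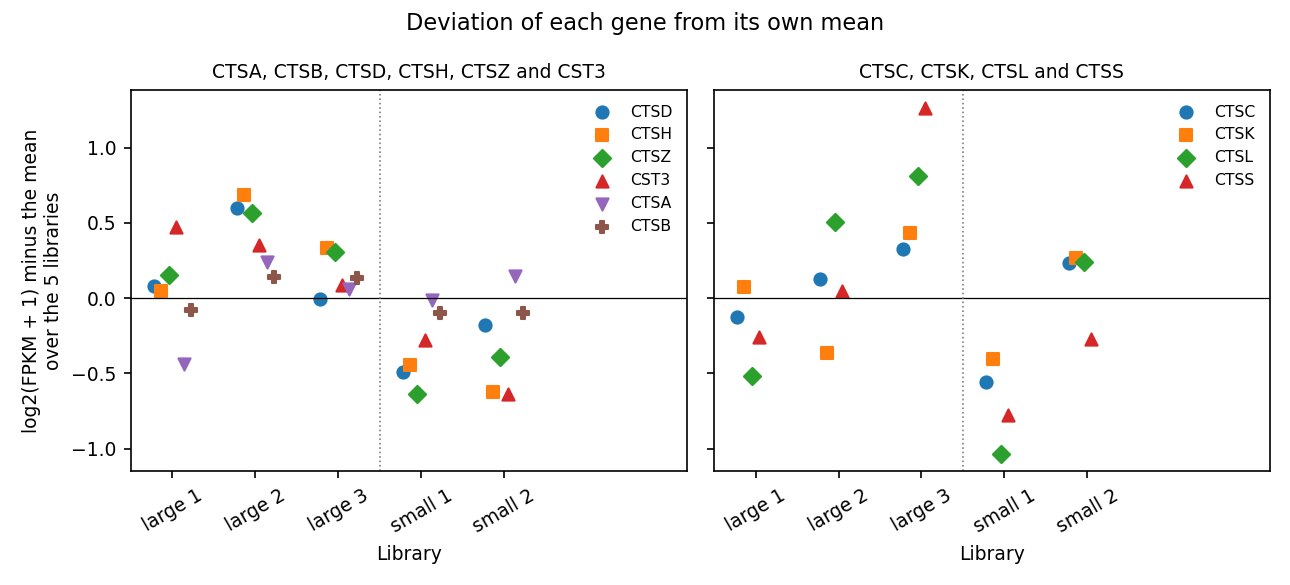
Each gene's log2(FPKM + 1) minus its own mean over the 5 libraries, in the 3 large follicle (left of the dotted line) and 2 small follicle libraries; genes were divided between the panels after their values were seen. CTSC, CTSK, CTSL and CTSS were all highest in large follicle replicate 3 and lowest in small follicle replicate 1, while CTSD, CTSH and CTSZ were highest in large follicle replicate 2. Over all genes tested, large follicle replicate 3 and small follicle replicate 1 tended to deviate from their group means in opposite directions.

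The members did not move as a block across libraries. Likeness was measured as the root-mean-square distance between mean-centred log2(FPKM + 1) values over the 5 libraries, a description with no test. The closest pairs were CTSH with CTSZ at 0.153, CTSD with CTSZ at 0.182 and CTSA with CTSB at 0.206 log2 units. The farthest pair was CTSL with CST3 at 0.757. CTSC, CTSK, CTSL and CTSS shared their highest library, large follicle replicate 3, and their lowest, small follicle replicate 1. Across all genes tested, deviations from the group means in these libraries correlated at -0.533. Opposite deviations in them were therefore common over all genes tested. The share of all genes with this same highest and lowest library was not computed. CST3 was highest in large follicle replicate 1, the library in which CTSA was lowest. For CTSZ, the member with the smallest p, the nearest of 7545 eligible genes were MVK, a mevalonate kinase, at 0.0384; FDPS, a farnesyl diphosphate synthase, at 0.0619; DTX4, a ubiquitin ligase, at 0.0829; ABHD12, a lysophospholipid hydrolase, at 0.0903; and PYGM, a glycogen phosphorylase, at 0.0973. FDPS had 57.5, 80.4 and 62.4 FPKM in large follicles, against 34.8 and 43.3 FPKM in small follicles. CTSH and CTSD stood at places 28 and 43 in that order.

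The balance of inhibitor to protease mRNA was compared within each library, which needs no scaling between libraries. The ratio of CST3 to the summed FPKM of the 7 papain-type cathepsins was 1.51, 0.996 and 0.771 in large follicles, against 1.10 and 0.642 in small follicles. The groups overlapped, and the ratio was not ordered by follicle size. Its mean was 1.09 ± 0.379 (SD, n = 3) in large and 0.869 ± 0.321 (SD, n = 2) in small follicles, a quotient of 1.26 with no test, which became 0.996 when small follicle replicate 2 was left out and 1.70 when small follicle replicate 1 was. The papain-type sum itself was 1046, 1458 and 1569 FPKM in large follicles, against 853 and 1138 FPKM in small follicles, so large follicle replicate 1 fell below small follicle replicate 2. All 10 members together took 0.351%, 0.446% and 0.424% of library fragments in large follicles, against 0.268% and 0.318% in small follicles. Here the groups did not overlap, but this share includes CST3. Without CST3, the summed FPKM of the cathepsin members was 1447, 2040 and 1968 in large follicles, against 1151.5 and 1502 in small follicles. In that sum large follicle replicate 1 fell below small follicle replicate 2, so the groups overlapped.

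**Figure D4:**
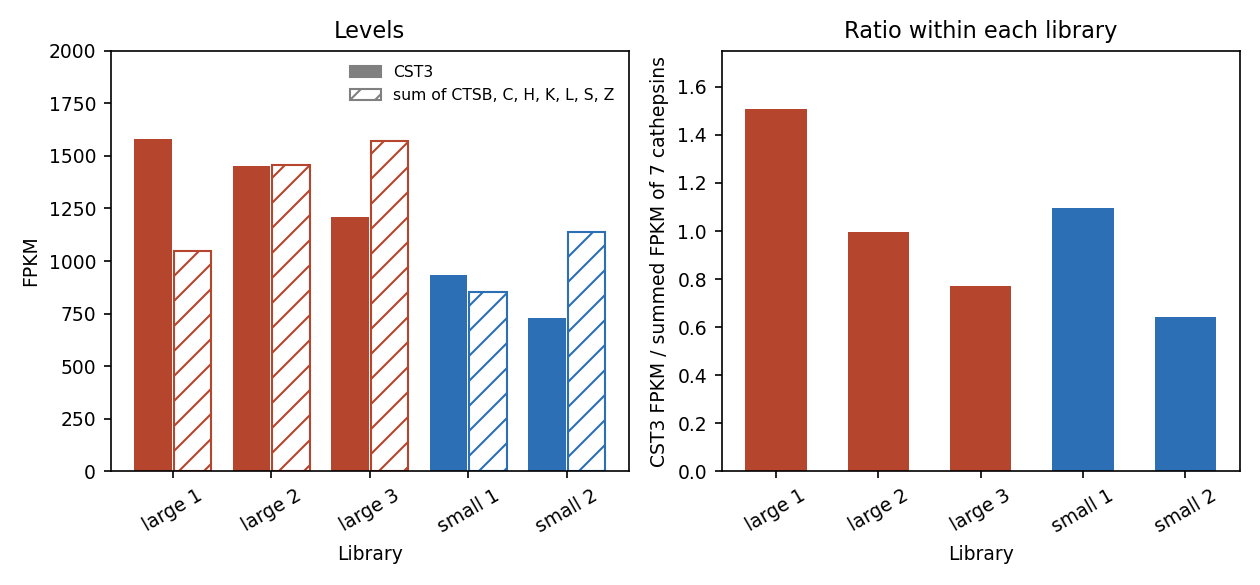
Left, FPKM of CST3 (filled bars) and the summed FPKM of CTSB, CTSC, CTSH, CTSK, CTSL, CTSS and CTSZ (hatched bars) in each library; right, their ratio, with large follicles in red and small follicles in blue. CST3 was higher in every large follicle library, while the ratio ran from 0.771 to 1.51 in large and from 0.642 to 1.10 in small follicles and overlapped.

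Other proteases and inhibitors of the same system had 0 calls. Of 7 tested cathepsins and processing proteases outside the members, 5 had higher and 2 lower values, with a median log2 difference of 0.34. CTSF, a further papain-type enzyme, had 241, 189 and 210 FPKM in large follicles, against 124 and 133 FPKM in small follicles. Its groups did not overlap (log2 difference 0.72 ± 0.21, SE; limma adjusted p = 0.186). TPP1, which removes tripeptides in the lysosome, had a log2 difference of -0.37 ± 0.22 (SE; limma adjusted p = 0.664). LGMN, the legumain that processes several cathepsins, had 111, 127 and 130.0 FPKM in large follicles, against 82.5 and 113 FPKM in small follicles. Of 5 tested inhibitors 4 had higher and 1 lower values. CSTB, the cytosolic cystatin, had 166, 184 and 121 FPKM in large follicles, against 116 and 107 FPKM in small follicles (log2 difference 0.47 ± 0.23, SE; limma adjusted p = 0.542). KNG1, the kininogen with cystatin domains, had a log2 difference of 0.59 ± 0.28 (SE; limma adjusted p = 0.531) at 1.21, 0.872 and 1.46 FPKM in large follicles, against 0.137 and 0.825 FPKM in small follicles, and so passed the filter only through large follicles.

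The rest of the lysosome showed medians nearer to that of all genes. Of 35 tested lysosomal hydrolases and activators other than cathepsins, 14 had higher and 21 lower values, with a median log2 difference of -0.02, and 0 were called. DNASE2, the acid DNase, and PLBD2, a phospholipase-like protein, had the smallest p in that list. Their log2 differences were 0.49 ± 0.20 (SE; limma adjusted p = 0.409) for DNASE2 and -0.48 ± 0.23 (SE; limma adjusted p = 0.528) for PLBD2. Of 13 genes of mannose-6-phosphate tagging and sorting, 5 had higher and 8 lower values, with a median of -0.09. SORT1, the sorting receptor sortilin, had 10.6, 8.88 and 11.9 FPKM in large follicles, against 15.8 and 17.7 FPKM in small follicles (log2 difference -0.64 ± 0.24, SE; limma adjusted p = 0.373), and VPS35, a retromer subunit, had -0.50 ± 0.24 (SE; limma adjusted p = 0.522).

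Of 19 lysosomal membrane proteins 7 had higher and 12 lower values. LAMP2, a major glycoprotein of that membrane, had 6.68, 14.0 and 18.4 FPKM in large follicles, against 22.9 and 35.1 FPKM in small follicles. Its groups did not overlap (log2 difference -1.17 ± 0.38, SE; limma adjusted p = 0.272), and it was called without large follicle replicate 3 (log2 difference -1.45; limma adjusted p = 0.0298). CD63, a tetraspanin of late endosomes, went the other way, at 665, 603 and 506 FPKM in large follicles, against 443 and 399.8 FPKM in small follicles (log2 difference 0.48 ± 0.24, SE; limma adjusted p = 0.543).

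The vacuolar proton pump, which acidifies the lysosome, had 13 of 16 tested subunits with higher and 3 with lower values, a median log2 difference of 0.21 and 0 calls. ATP6V0E1 had 134, 109 and 108 FPKM in large follicles, against 59.0 and 65.6 FPKM in small follicles (log2 difference 0.89 ± 0.20, SE; limma adjusted p = 0.0872), and ATP6V0B had 0.53 ± 0.20 (SE; limma adjusted p = 0.356). Transcription factors of lysosomal genes were close to level: MITF, TFE3 and TFEB had log2 differences of 0.22, -0.09 and -0.0010, and their limma adjusted p was at least 0.905.

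**Figure D5:**
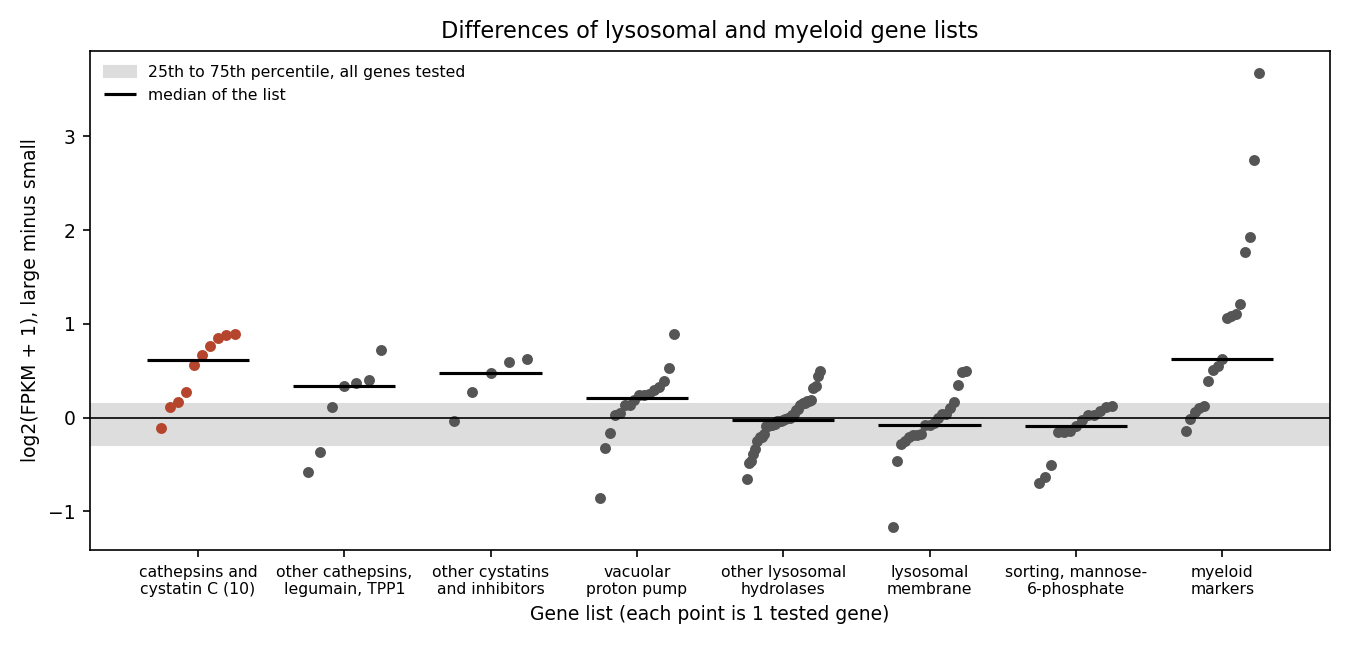
Difference in log2(FPKM + 1), large minus small follicles, of every tested gene in each list (points) with the median (bar); the band holds the 25th to 75th percentile of all genes tested. The medians were 0.61 for the 10 members, -0.02 for other lysosomal hydrolases and 0.62 for myeloid markers. The myeloid median includes S100A8, S100A9 and S100A12, which passed the filter only through large follicles.

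Many markers of macrophages and other myeloid cells, which are rich in cathepsins, also had higher values in large follicles, but several macrophage markers were close to level. Of 17 tested markers 15 had higher and 2 lower values, with a median log2 difference of 0.62; LYZ, the lysozyme, was called (log2 difference 2.74 ± 0.21, SE; limma adjusted p = 0.000551). Their summed level was 488 to 699 FPKM in large and 389 to 439 FPKM in small follicles, and none of them was under 1 FPKM in every library. S100A8, a neutrophil protein, was at 0 in both small follicle libraries and had 2.03, 9.33 and 0.248 FPKM in large follicles. S100A9 and S100A12 were likewise under 1 FPKM in both small follicle libraries. S100A8, S100A9 and S100A12 passed the filter only through large follicles, which favours higher values in the count and median of this list. Markers differed among themselves. CSF1R, C1QA, C1QB, C1QC and MSR1 had log2 differences of 0.10, -0.14, 0.13, -0.01 and 0.06. C1QC, a complement protein of macrophages, had 94.3, 140.1 and 139 FPKM in large follicles, against 135 and 113 FPKM in small follicles, while TYROBP, an adaptor of myeloid receptors, had 61.0, 97.5 and 61.0 FPKM in large follicles, against 37.6 and 24.4 FPKM in small follicles. The markers also peaked in different libraries. C1QB, CD163, MRC1, MSR1, ITGAM and PTPRC were highest in large follicle replicate 3, as CTSS was. CSF1R, CD14, TYROBP, FCER1G, C1QC, LYZ, S100A8, S100A9 and S100A12 were highest in large follicle replicate 2. AIF1 was highest in large follicle replicate 1 and C1QA in small follicle replicate 1. PTPRC had 1.32, 1.02 and 2.77 FPKM in large follicles, against 0.628 and 1.44 FPKM in small follicles. The summed level was highest in large follicle replicate 2, where S100A12 had 61.1 FPKM against 2.11 FPKM in large follicle replicate 3. Of 9 theca markers 6 had higher and 3 lower values, with a median log2 difference of 0.51. Those with lower values were GLI1 (log2 difference -1.02), PTCH1 (-0.63) and NR2F2 (-0.32). Theca markers summed to between 2048 and 4255 FPKM in large and between 913 and 1211 FPKM in small follicles. CYP17A1 and INSL3 had the highest levels of the list in every library, so this sum does not describe the other theca markers. CYP17A1, the androgen-forming enzyme of theca cells, was called higher (log2 difference 3.07 ± 0.44, SE; limma adjusted p = 0.0121, and 0.140 with no filter on low values). Of 10 granulosa markers 2 had higher and 8 lower values, and their sum was 5413 to 13432 FPKM in large and 4088 to 5581 FPKM in small follicles. Most of that sum was INHA, at 4474, 11739 and 6453 FPKM in large follicles, against 2876 and 3515 FPKM in small follicles. The markers with higher values were INHA and CYP19A3, so the sum does not describe the other markers. INHBB, an inhibin and activin subunit of granulosa cells, was called lower (log2 difference -2.94 ± 0.47, SE; limma adjusted p = 0.0237). Its limma adjusted p was 0.0775 with large follicle replicate 1 left out, 0.0817 with small follicle replicate 2 left out, 0.166 with no filter and 0.0522 where the mean FPKM had to reach 5. All 3 tested erythroid markers had higher values, with sums of 1003 to 1675 FPKM in large and 233 to 701 FPKM in small follicles. Of these, AHSP was at 0.396 and 0.376 FPKM in small follicles and passed the filter only through large follicles. Of 7 endothelial markers 5 had higher and 2 lower values, and AQP1 was called higher (log2 difference 1.10 ± 0.19, SE, limma adjusted p = 0.0316). Of 2 tested mast cell markers HDC was called higher (2.595 ± 0.305, SE, limma adjusted p = 0.00559) and KIT had a lower value (-1.39). Values were higher for 5 of 5 tested lymphocyte, 4 of 5 smooth muscle and 5 of 7 stroma markers. Lymphocyte markers CD4 and GZMA passed the filter only through large follicles. The part of cell content in the member differences was not tested.

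Genes that work beside CTSS in antigen presentation had 4 of 6 higher and 2 lower values. IFI30, a lysosomal thiol reductase, had 87.2, 97.2 and 75.3 FPKM in large follicles, against 45.9 and 46.1 FPKM in small follicles (log2 difference 0.89 ± 0.20, SE; limma adjusted p = 0.0872). SLA-DMB, a chain of the MHC class II peptide exchanger, had a log2 difference of 0.31 ± 0.21 (SE; limma adjusted p = 0.713). CD74, the invariant chain that CTSS cuts, had 517, 736 and 476 FPKM in large follicles, against 615 and 424 FPKM in small follicles, and its groups overlapped.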

How the data were processed

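RNA sequencing was made from total RNA isolated with TRIzol, with paired-end libraries from a stranded mRNA kit, per the labels' protocols. The authors deposited FPKM values per gene, 1 file per library. Per the submitters' processing notes, which give neither roles nor an order, the tools were featureCounts 1.5.0-p3, HISAT2 2.0.5, StringTie 1.3.3, Trimmomatic 0.38 and FastQC 0.11.4, and the genome build was Sscrofa11.1. Chromosome numbers came from a RefSeq table of that assembly, which matched 30335 of 30822 gene identifiers.

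Library totals and fragments were derived from the size of the smallest FPKM steps. Of 23353 genes above 0, 49.5% gave whole fragments, within 0.001, with the listed length, and the other 11791 with a shorter one, among them CTSB, CTSC and CTSK. Recovered fragments made up 99.5% to 99.6% of the totals.

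A gene was tested where 2 or more libraries reached an FPKM of 1. The test was limma 3.58.1 (R 4.3.3) on log2(FPKM + 1) with a mean-variance trend, follicle size as the sole term and p-values adjusted by Benjamini-Hochberg. It was two-sided. On simulated data it missed most changes of 2-fold and made more false calls than its nominal rate. Fold changes on this scale understate those of low genes. The ± sign marks an SD beside FPKM and an SE beside a log2 difference.

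All 10 members are named. Of each list of cathepsin and lysosomal genes, called genes and the 2 with the smallest p are named. CTSV, LGMN and CD74, and the cell type markers, which the rule gives as counts and sums, were named after their values were seen. The nearest profiles were sought among tested genes with a symbol and a mean FPKM of at least 5. Members and lists were chosen with earlier results of these data known. Alternatives were other pseudocounts (0.1 and 5), filters, scalings, a variance model without trend, voom, a replicate block and each library left out.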

Additional observations from a re-analysis of the deposited data

How the results depend on the processing

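No member was called by limma under any of the 15 alternatives. CTSB, CTSD, CTSH, CTSL, CTSS, CTSZ and CST3 kept a positive log2 difference under all of them, from 0.72 to 1.04 for CTSH, 0.73 to 0.98 for CTSZ, 0.47 to 0.94 for CST3, 0.37 to 0.72 for CTSD, 0.040 to 0.26 for CTSB, 0.030 to 1.303 for CTSL and 0.42 to 1.18 for CTSS. The lowest value was with a common sum for CTSB, without small follicle replicate 1 for CTSL, and without large follicle replicate 3 for CTSS. The replicate block gave the same log2 differences as leaving out large follicle replicate 3, the only library with that number. It is therefore no separate check of them. The sign changed for CTSA without large follicle replicate 1 (0.083) and for CTSC without small follicle replicate 1 (-0.12). For CTSK it changed with a common sum (-0.011) and without small follicle replicate 1 (-0.22). It also changed for CTSK without large follicle replicate 3 (-0.080), and so with the replicate block. With 1 library left out in turn the log2 difference ran from -0.25 to 0.083 for CTSA, -0.12 to 0.67 for CTSC and -0.22 to 0.45 for CTSK. Scaling to a common sum moved the median log2 difference of all genes to -0.19, from -0.08. Under it 3 members had groups that did not overlap and were higher in large follicles, where 6.7% of all genes did so, against 6 and 10.9% without it, an alternative chosen after the data were seen; it was 5 with median-of-ratios scaling, where 14.6% of all genes did so, and 5 with quantile normalization, where 15.5% did. Over all genes 70 were called higher and 58 lower. These counts were 15 and 17 with no filter, 31 and 10 where the mean FPKM had to reach 5, and 39 and 31 with voom. Median-of-ratios scaling gave 123 higher and quantile normalization 118. With 1 library left out in turn they ran from 23 to 163 higher and from 6 to 105 lower. In the fixed lists of lysosomal genes 0 to 1 were then called lower, the 1 being LAMP2. The quotient of the CST3 ratio ran from 0.996 to 1.70. The cause of these changes was not tested.

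The libraries share replicate numbers 1 and 2 across the groups. Deviations from the group means correlated at -0.00148 across genes for number 1 and at -0.449 for number 2. Large follicle replicate 3 and small follicle replicate 2, which differ in number, correlated at 0.533. With only 2 small follicle libraries, their deviations are mirror images, so these values cannot decide whether the numbers mark pairs. The numbers were not used as pairs. A replicate block gave 82 genes called higher and 75 lower, and 0 members. Its log2 differences equal those without large follicle replicate 3, so it adds no separate check of them. The members had 373 fragments or more in each library. The number of libraries, 3 against 2, limits the precision of every comparison.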
